A study of Mus musculus with 2 samples.

Results

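Transcript signals of 8 genes of the endocannabinoid system were compared between the hypothalami of mice without Crtc1 and of wild-type mice. The genes are Cnr1, which encodes the cannabinoid receptor CB1, and 7 genes for enzymes that make or break down its ligands (Dagla, Daglb, Mgll, Faah, Napepld, Abhd6 and Abhd12). They were chosen by function, with earlier results of these data known. They are read by 15 probe sets, all those that the platform annotation pairs with one of these symbols alone. The 8 genes are among 18193 genes with a probe set of their own on the array, and no probe set pairs one of them together with another gene.

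The data are 2 Affymetrix arrays, 1 for each genotype. One group is labelled Crtc1 KO and the other Crtc1 WT; both consist of males aged 12 weeks that went without food for 18 h and were then fed again for 6 h, and each array carries RNA pooled in equal amounts from 3 mice. The sources used here do not give the strain, how the Crtc1 allele was made or which cells lack it. A pool on 1 array has no spread between animals, so no difference between the genotypes was tested and no p-value is given. Values of a gene in the 2 pools are single readings, and a lower signal from fewer cells of a type cannot be told apart from less RNA per cell.

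Endocannabinoids are lipid messengers made on demand in the membrane of a neuron. The main ligand 2-arachidonoylglycerol (2-AG) is cut from diacylglycerol by the DAGL enzymes and travels backward across the synapse to CB1, a receptor on the presynaptic terminal that couples to inhibitory G proteins and lowers transmitter release. A related ligand, anandamide, is released from N-acyl phosphatidylethanolamines by NAPE-PLD, among other routes. Hydrolases end both signals. In the hypothalamus CB1 signalling promotes food intake, and Crtc1, which the study's title links to energy balance and fertility, assists CREB in switching on its target genes.

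The labels were checked first. The Crtc1 probe set 1434476_at read 85.1 in knockout and 631 in wild-type RNA, and 1458443_at read 31.5 and 209. Both were lower in the pool labelled knockout. A further Crtc1 probe set, 1446533_at, read 14.7 in knockout and 38.4 in wild-type RNA and was too dim to count as measured. Of 12 hypothalamic peptide genes listed as tissue markers, 11 had a probe set of their own and 10 were measured (Crh was not), with a summed signal of 10822 in knockout and 11096 in wild-type RNA. Of the 10, 7 were lower in the knockout pool and 3 higher, with a median difference of -0.12, from Cartpt at -0.82 to Avp at 0.56. The median signal was 54.4 in knockout and 52.2 in wild-type RNA, a log2 difference of 0.06. Signals under the 30th percentile of an array were raised to it, and a probe set is called measured if the mean of its 2 log2 signals is at least 5.71, the median of all such means. By this limit 19814 probe sets with 1 gene and 11312 genes were measured, and 14 of the 15 endocannabinoid probe sets among them.

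The receptor gene Cnr1 had the largest difference of any probe set of the 8 genes, and its 2 probe sets went opposite ways. Probe set 1434172_at read 700 in knockout and 529 in wild-type RNA, so the knockout reading was 1.32-fold higher, a log2 difference of 0.40 with an array error of 0.21. Probe set 1419425_at read 203 in knockout and 333 in wild-type RNA, 1.64-fold lower in the knockout, a log2 difference of -0.72 with an array error of 0.23. The array error is the SD of probe-set differences around the mean of their gene at the same signal, over all genes with at least 2 measured probe sets, and holds no spread between mice. The 2 readings were thus 1.96 and 3.13 array errors from zero, on opposite sides, and their mean was -0.16. Both signs held with median centring, quantile normalization and loess, where the readings stayed within 0.34 to 0.42 and -0.78 to -0.72. No single direction can be given for Cnr1 from these arrays.

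**Figure D1:**
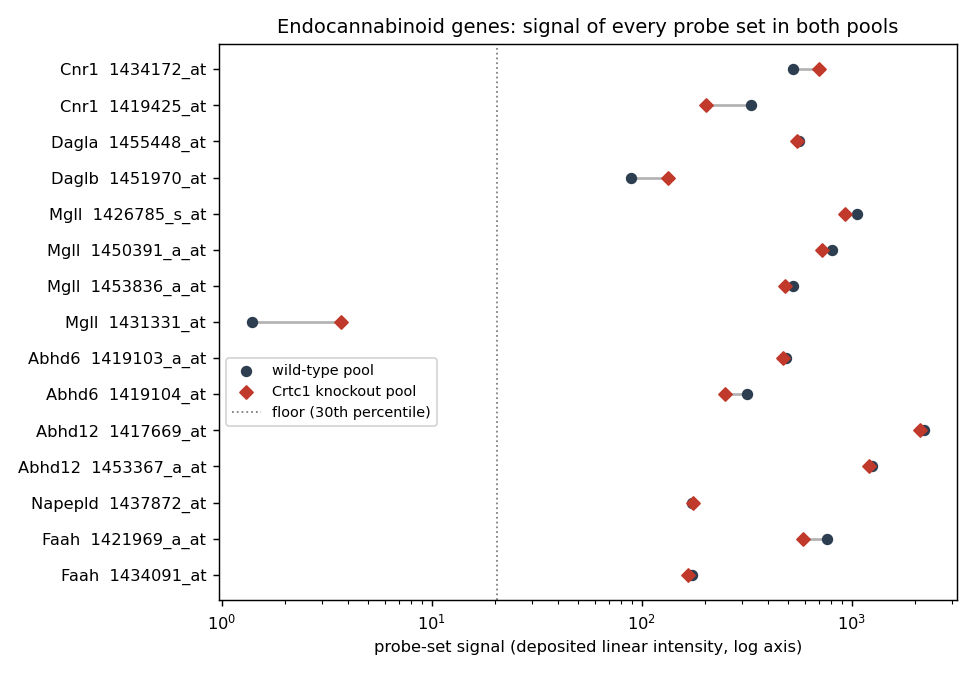
Signals of all 15 probe sets of the 8 genes in the wild-type pool (circles) and the Crtc1 knockout pool (diamonds), as deposited linear intensities on a log axis, with the floor as a dotted line. The 2 Cnr1 probe sets move in opposite directions, Daglb is higher in the knockout pool, and 1 Mgll probe set lies below the floor on both arrays.

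The disagreement within Cnr1 was wide for this array. The gap between its 2 log2 differences was 1.12, which is 3.64 times the combined array error of 0.31. Among the 3100 genes with exactly 2 measured probe sets the median gap was 0.21, and 32 genes (1.03%) had a gap at least as wide as that of Cnr1. Opposite signs alone are common, being found in 57.5% of the 5199 genes with 2 or more measured probe sets. Genes with more than 2 are among them, where a mixed sign arises more readily than with the 2 of Cnr1. Opposite signs with one side at least 1.5-fold and the other at least 1.3-fold, a description set after the values were seen, were found in 48 of the 5199 genes (0.923%). The Cnr1 gap stayed between 1.07 and 1.14 in all 9 alternative settings that measured both probe sets. Over all genes with 2 or more measured probe sets, 85 (1.63%) had a gap as wide as Cnr1, and this share was 5.52% with dim probe sets included and 0.441% with the signal limit at the 70th percentile.

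**Figure D2:**
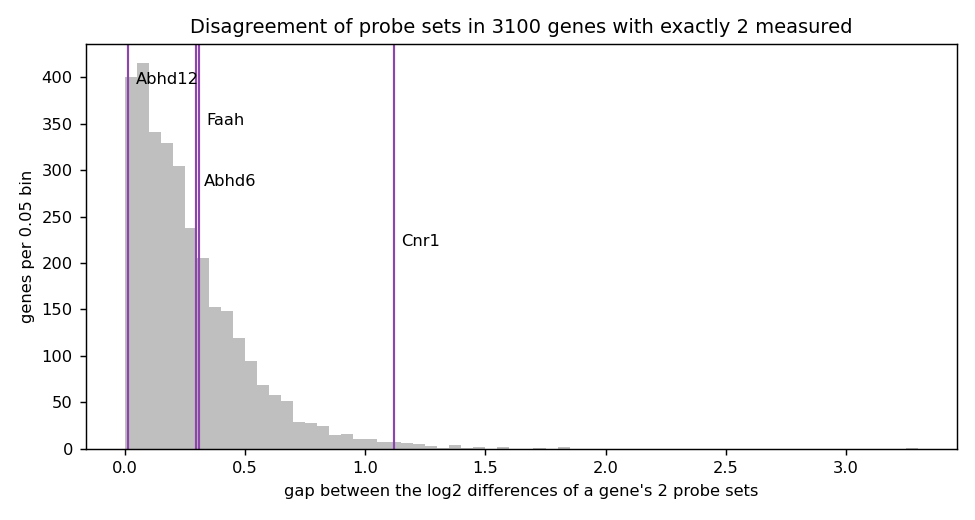
Histogram of the gap between the log2 differences of a gene's 2 probe sets, for the 3100 genes with exactly 2 measured, in bins of 0.05 (x axis: gap on the log2 scale, y axis: genes). Vertical lines mark Abhd12 at 0.01, Abhd6 at 0.30, Faah at 0.31 and Cnr1 at 1.12, in the tail.

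The annotation credits 1419425_at to a RefSeq mRNA record of Cnr1 and 1434172_at to another GenBank record. The sources used here do not say where the probes lie along the Cnr1 transcripts, and whether the probe sets read different transcripts was not tested. Markers of cortex and hippocampus, where Cnr1 is abundant, were higher in the knockout pool in 7 of 10 measured genes of a list of 12, with a median difference of 0.13 and a summed signal of 13226 against 12378 in the wild-type pool. Striatum markers were higher in 4 of 6 measured genes of a list of 8, with a median of 0.10 and summed signals of 3777 and 3625. Both medians stayed above zero with the other 3 scalings, and no measured marker of either list was at the floor. The part of neighbouring forebrain tissue in either Cnr1 reading was not tested.

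RefSeq lists 3 start windows for Cnr1 in assembly GRCm38.p6, and 10 windows for 6 of the 8 genes in all. CREB binds the palindrome TGACGTCA and its half-site TGACG. None of the 10 windows, each of 250 bases before and 50 after a start, holds the palindrome, which is in 1.79% of the 32851 windows of the table. A half-site on either strand is in 1 of the 10 and in 20.8% of all windows; it also counts where it lies inside the palindrome. These are matches of letters only. The stretches before the first starts of Cnr1, Daglb and Faah are shown because these genes had the largest differences, with CpG pairs in capitals. The fourth line holds the 1 half-site found, in capitals and read on the opposite strand, which begins at base 20 from the second listed start of Mgll.
Cnr1 (chr4:33924014-33924263, plus strand): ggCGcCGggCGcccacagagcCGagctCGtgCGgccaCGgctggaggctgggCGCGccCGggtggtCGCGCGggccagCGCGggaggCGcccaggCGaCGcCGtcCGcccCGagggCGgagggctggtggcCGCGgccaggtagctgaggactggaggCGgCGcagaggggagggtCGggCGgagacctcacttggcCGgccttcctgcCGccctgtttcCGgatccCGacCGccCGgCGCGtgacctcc
Daglb (chr5:143464243-143464492, plus strand): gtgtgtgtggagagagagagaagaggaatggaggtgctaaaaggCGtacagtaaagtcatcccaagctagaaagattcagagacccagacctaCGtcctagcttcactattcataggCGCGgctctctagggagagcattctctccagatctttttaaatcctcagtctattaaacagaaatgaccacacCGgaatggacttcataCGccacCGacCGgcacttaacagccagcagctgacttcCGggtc
Faah (chr4:116017925-116018174, minus strand): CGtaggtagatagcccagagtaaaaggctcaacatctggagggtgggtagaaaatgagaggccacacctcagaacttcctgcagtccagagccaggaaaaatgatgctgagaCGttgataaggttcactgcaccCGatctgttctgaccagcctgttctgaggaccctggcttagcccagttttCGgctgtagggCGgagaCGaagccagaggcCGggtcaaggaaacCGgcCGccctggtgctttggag
Mgll (chr6:88724711-88724740, plus strand): cagacttgtgccCGTCAactgcatcttccc
The Cnr1 stretch holds 36 CpG pairs in 250 bases, and in 2.58% of all windows the bases before the start hold at least as many. The Daglb and Faah stretches hold 9 each, a number reached in 40.3% of windows, and the median is 6. Over whole windows, bases after the start included, the listed Cnr1 starts had 40, 33 and 5 CpG pairs, against a median of 7 over all windows.

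Of the enzymes that make 2-AG, 1 was higher in the knockout pool and the other hardly differed. Daglb, the gene of the DAGL isoform best known from macrophages and microglia, read 134 in knockout and 89 in wild-type RNA by its only probe set, 1451970_at. This is 1.502-fold higher, a log2 difference of 0.59 with an array error of 0.32. Dagla, which encodes the isoform that makes most 2-AG at synapses, read 550 in knockout and 562 in wild-type RNA by 1455448_at. Its log2 difference was -0.03 with an array error of 0.21.

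The Daglb difference sat at the edge of the 1.5-fold limit and came from a signal range with wide scatter. Of the 5699 measured probe sets with a mean log2 signal below 7, 10.6% were at least as far apart as Daglb. The log2 difference was 0.51 to 0.59 in the 8 alternative settings that measured this probe set, and with median centring, quantile normalization, loess or a pseudocount it fell under 1.5-fold. With the signal limit at the 70th percentile Daglb was not measured. Microglia markers were higher in the knockout pool in 6 of 9 measured genes of a list of 10, with a median of 0.23 and a summed signal of 4641 against 4108, none of them at the floor. Their part in the Daglb reading was not tested.

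The 3 genes for hydrolases of 2-AG were each lower in the knockout pool by every measured probe set, by small amounts. Mgll encodes monoacylglycerol lipase, which removes most 2-AG in brain. Its probe set 1426785_s_at read 926 in knockout and 1064 in wild-type RNA, a log2 difference of -0.20. By 1450391_a_at Mgll read 723 and 809 (-0.16), and by 1453836_a_at 481 and 526 (-0.13). All 3 readings were lower in the knockout pool and lay within 0.07 of each other, and none exceeded its array error of 0.21 to 0.23. The fourth Mgll probe set, 1431331_at, read 3.7 and 1.4, below the floor of 20.5 and 20.2, and gives no difference.

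Abhd6 and Abhd12 encode membrane serine hydrolases that take the remaining 2-AG, Abhd6 on the cytosolic side at postsynaptic sites and Abhd12 on the outer or lumenal side, where it is also the main lysophosphatidylserine lipase. Abhd6 read 470 in knockout and 485 in wild-type RNA by 1419103_a_at, a log2 difference of -0.04. By 1419104_at it read 251 and 318, 1.27-fold lower, a difference of -0.34 with an array error of 0.23. The 2 probe sets shared the sign, and their gap of 0.30 was within the combined array error of 0.32. Abhd12 read 2129 and 2211 by 1417669_at, and 1212 and 1247 by 1453367_a_at. Its log2 differences of -0.05 and -0.04 were both under the array error of 0.16 and lay 0.01 apart. Among the 5199 genes with 2 or more measured probe sets, 97.6% had a gap at least as wide. The median gap was 0.28 over these genes, some with more than 2 probe sets, and 0.21 over genes with exactly 2. Bright probe sets, as those of Abhd12, also have the smallest array error.

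**Figure D3:**
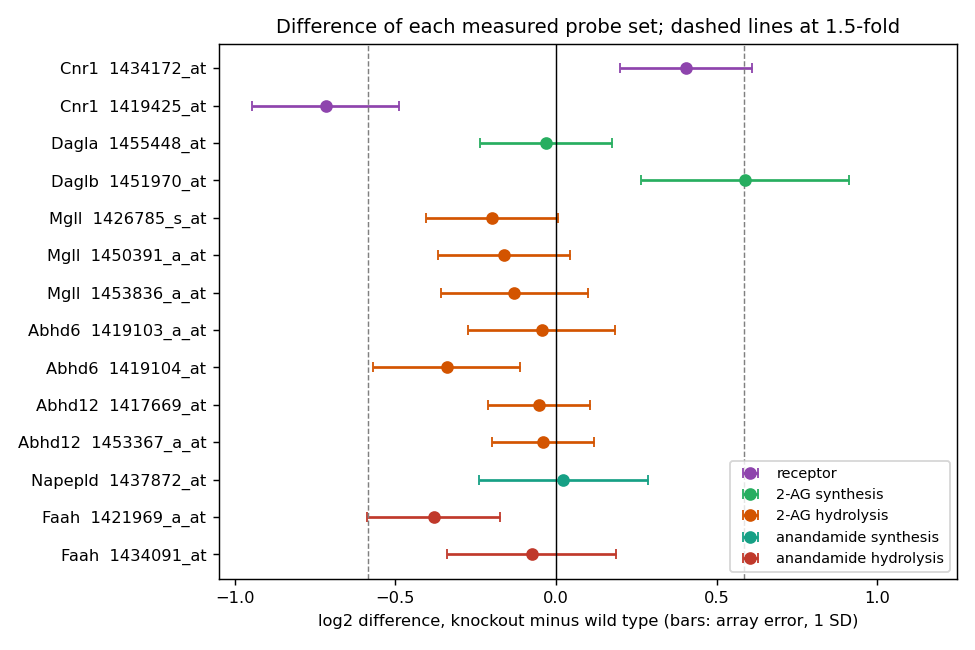
Log2 difference, knockout minus wild type, of the 14 measured probe sets, coloured by role, with bars of 1 array error (SD) and dashed lines at 1.5-fold. The 9 hydrolase probe sets all lie left of zero, between -0.38 and -0.04; the 2 Cnr1 probe sets lie on opposite sides, at 0.40 and -0.72, and Daglb touches the upper dashed line at 0.59.

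Of the anandamide genes, the hydrolase was lower and the synthetic enzyme was level. Faah, which encodes fatty acid amide hydrolase, the enzyme that ends anandamide signalling, read 588 in knockout and 766 in wild-type RNA by 1421969_a_at. This is 1.303-fold lower, a log2 difference of -0.38 with an array error of 0.21. By 1434091_at Faah read 166 and 175, a difference of -0.08 with an array error of 0.26. Both probe sets were lower in the knockout pool, the first by 1.85 array errors, and the mean was -0.23. Of the 2875 measured probe sets with a mean log2 signal from 9 to 10, 4.28% were at least as far apart as the first Faah probe set. Napepld, which encodes the phospholipase NAPE-PLD, read 176 in knockout and 173 in wild-type RNA by 1437872_at. Its log2 difference was 0.02, with an array error of 0.26, and its sign turned with median centring (-0.04), quantile normalization and loess.

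The hydrolase genes of both ligands, Mgll, Abhd6, Abhd12 and Faah, were put together outside the planned comparisons. All 9 of their measured probe sets were lower in the knockout pool, with a median of -0.13, while 48.9% of all measured probe sets were lower. Among measured probe sets with a mean log2 signal of 9 or more the share was 54.7%, and with median centring 60.3% of all were lower. Of the 9, 2 exceeded their array error, the brighter of Faah and the dimmer of Abhd6, against 27.4% of all measured probe sets. The probe sets of a gene are not independent readings, so the 9 stand for 4 genes, all read from the same 2 pools. The 9 were lower under the 8 alternative settings that kept them all, median centring, quantile normalization and loess included, and the remaining 8 were lower without the Mgll probe set 1426785_s_at, whose suffix marks probes shared by several transcripts. Choroid plexus markers were also lower, in 7 of 8 measured genes of a list of 10 (median -0.34, summed signal 8896 in knockout and 10050 in wild-type RNA), as were neuron markers in 6 of 8 (median -0.04, summed signals 29204 and 29465), and no measured gene of either list was at the floor in both pools. Both medians stayed below zero under the 3 other scalings, though with loess 4 of the 8 neuron markers were higher. Hypothalamic peptide markers had a median of -0.12. Medians were above zero for markers of microglia (0.23), cortex and hippocampus (0.13), striatum (0.10), thalamus (0.08), astrocytes (0.05), endothelium (0.03) and myelin (0.02). Those of astrocytes, endothelium and myelin turned below zero with median centring. The part of any of these cell types or tissues in the hydrolase readings was not tested. A list of 13 further Abhd hydrolase genes, which does not cover the whole family, was measured in full. By the brightest probe set of each gene, 7 were higher and 6 lower, with a median of 0.07, or 0.01 with median centring. These are counts by gene, where the 9 above are counted by probe set, so the counts are not alike. By the brightest probe set, Abhd17b, a depalmitoylase gene, had the highest difference of the list at 0.30. Abhd16a, which encodes a phosphatidylserine lipase, had the lowest at -0.13. The other probe set of Abhd17b differed by -0.01, and that of Abhd16a by -0.33 with an array error of 0.21.

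By count, 1 of the 14 measured probe sets passed 1.5-fold upward in the knockout (Daglb) and 1 downward (1419425_at of Cnr1), where 2.65% and 1.79% of all measured probe sets did, 4.44% in all. By the probe set with the highest mean signal of each gene, 1 of 8 genes was at least 1.5-fold higher and 0 were lower, against 2.06% and 1.44% of all measured genes. These are single calls, and nothing about the 8 genes is read from them. At 1.2-fold, 2 probe sets were higher and 3 lower, against 13.9% and 11.8% of all measured ones, and 2 genes were higher and 1 lower, against 11.9% and 9.97%. Within 1.2-fold lay 5 of the 8 genes, against 78.1% of all measured genes. The median over the 8 genes was -0.04, with 3 higher and 5 lower, and over all measured genes it was 0.00, with 49.0% lower. No probe set of the 8 genes was 2-fold apart, where 0.570% of all measured probe sets and 0.433% of genes were. Of the 14 probe sets, 5 exceeded their array error, against 27.4% of all measured ones.

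**Figure D4:**
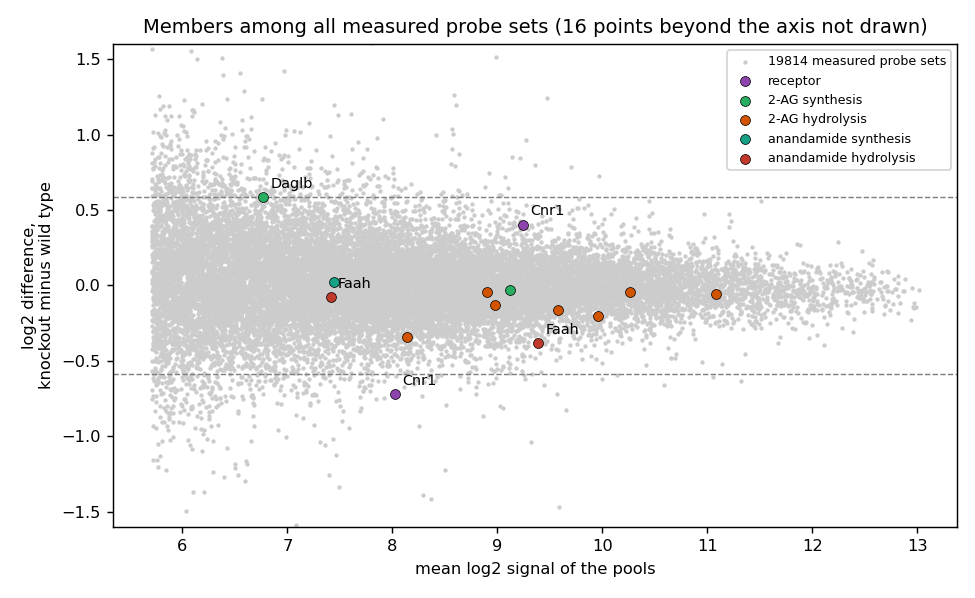
Log2 difference, knockout minus wild type, against the mean log2 signal of the pools for the 19814 measured probe sets with 1 gene (grey; 16 beyond 1.6 not drawn), with the 14 measured endocannabinoid probe sets coloured by role and dashed lines at 1.5-fold. The lower Cnr1 probe set lies outside most points of its signal range, of which 0.566% were as far apart, while Daglb lies in the wide scatter of dim probe sets.

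Of 67 further genes of the endocannabinoid pathway in 9 roles, 62 had a probe set of their own and 50 were measured, 25 higher and 25 lower in the knockout pool. None of the 50 was 1.5-fold apart by its brightest probe set, against 3.50% of all measured genes, and 43 (86%) lay within 1.2-fold, against 78.1% of all; nothing about the pathway is read from these shares. Of the 34 with at least 2 measured probe sets, 21 had probe sets of opposite sign (61.8%, against 57.5% of all such genes), among them Cnrip1, Sgip1, Plcb1, Abhd4, Gdpd1, Naaa, Kcnj3 and Abhd17b, whose differences are given by the brightest probe set unless another is named. The median over the 50 was 0.01 and had no settled sign. It turned to -0.046 with median centring, to -0.012 without the _s_at and _x_at probe sets and to -0.017 with averaged probe sets. By role, the medians kept their sign under the 3 other scalings, except for the enzymes that break down or oxidise these lipids, which have 2 measured genes and turned from 0.02 to between -0.04 and -0.01.

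Partners of CB1 had small differences of both signs. Cnrip1, which encodes a protein bound to the tail of the receptor, differed by -0.16, and Sgip1, whose product slows the internalisation of CB1, by 0.09. None of the other receptors of these lipids was measured. Cnr2, which encodes the second cannabinoid receptor CB2, read 1.3 in knockout and 17.3 in wild-type RNA, under the floor in both. The probe sets of Gpr18 and Trpv1 were also under the floor in both pools, as were 2 of the 3 probe sets of Ppara.

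Genes upstream of diacylglycerol, the source of 2-AG, had a median of 0.00 over 7 measured genes. The furthest were Plcb1, a phospholipase C gene, at 0.27 and Chrm1, a muscarinic receptor gene, at -0.24. Grm5, the metabotropic glutamate receptor gene often coupled to 2-AG release, read 997 in knockout and 907 in wild-type RNA, a difference of 0.14. Diacylglycerol kinases, which draw on the same lipid, had a median of -0.13 over 6 measured genes, 2 higher and 4 lower. By the brightest probe set, Dgkq, with 1 measured probe set, was lowest at -0.38 and Dgkh highest at 0.25. By the mean of measured probe sets Dgkd was lower than Dgkq, at -0.51 over 3.

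Of the other routes to anandamide, Abhd4 was the highest at 0.39 by its brightest probe set, one whose suffix marks possible matches to other transcripts, and its other probe set differed by -0.09. Gdpd1, a glycerophosphodiesterase gene, was the lowest at -0.22, and the median over 5 genes was -0.06. Among enzymes that also degrade or oxidise these lipids, Naaa, which encodes an acid amidase of N-acylethanolamines, differed by 0.24 and Ptgs2, which encodes cyclooxygenase-2, by -0.21. The intracellular carriers had a median of -0.04 over 5 genes, with Fabp5 highest at 0.16 and Fabp7, the astrocyte-type fatty acid binding protein gene, lowest at -0.26. Effectors of CB1 at the synapse had a median of 0.06 over 10 genes, 7 higher and 3 lower. Kcnj6, which encodes a G protein-gated potassium channel, was the highest at 0.30 and Kcnj3, its partner subunit gene, the lowest at -0.08. The 2 other measured probe sets of Kcnj3 differed by 0.43 and 0.25, and by the mean of all 3, which was 0.20, Kcnj3 was not the lowest; Gnao1, an inhibitory G protein gene, was lower, with a mean of -0.18 over its 2 probe sets.

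**Figure D5:**
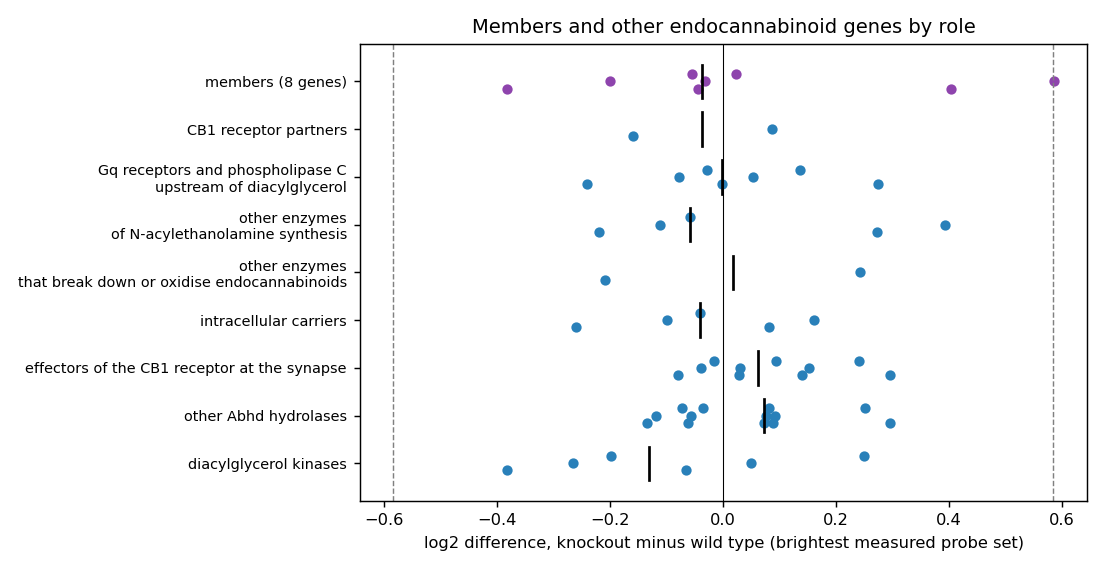
Log2 difference, knockout minus wild type, by the brightest measured probe set, for the 8 endocannabinoid receptor and enzyme genes (top row) and the 50 other measured pathway genes by role; the short black bars are medians and the dashed lines mark 1.5-fold. All 50 pathway genes lie inside the dashed lines, and Daglb alone lies at the line.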

How the data were processed

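The values the authors deposited are linear signal intensities of probe sets; the sources used here do not name the summary algorithm. After trimming 2% at each end, the mean was 200.0 for either array, so each array had been scaled by 1 factor, which was kept. Per the labels' protocols, 30 ug of total RNA went into the labelled cRNA. Of 45101 probe sets, 64 controls were left out. Genes were named by GEO's annotation of the platform and their symbols updated through RefSeq (GRCm38.p6) by Entrez ID; 34945 probe sets had 1 gene, 932 several and 9160 none, and 34741 of the first matched. Signals were floored at each array's 30th percentile and put on the log2 scale. Measured means a mean log2 signal at or above the median. Differences are knockout minus wild type. A gene's value is its brightest measured probe set. A call means 1.5-fold. Named pathway genes are the highest and lowest of each role by the brightest probe set, besides all members. Grm5, Gnao1, Gnaq, Dgkd, the unmeasured receptors and Plcb2 were added after their values were seen. The members and lists were chosen with earlier results of these data known. With 1 array per group no test was run, and precision is limited by the number of arrays. The code was tested on simulated data. Alternatives were 3 scalings, 3 floors or pseudocounts, 2 filters, leaving out _s_at and _x_at probe sets, averaging probe sets, and other folds. Probe sets with the suffix _a_at were kept throughout. Python 3.11.15, numpy 2.4.6, pandas 2.3.3 and statsmodels 0.14.6 were used.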

Additional observations from a re-analysis of the deposited data

How the results depend on the processing

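The count of endocannabinoid probe sets and of genes at least 1.5-fold higher was 1 (Daglb) and became 0 with median centring, quantile normalization, loess, the pseudocount of 16 and the signal limit at the 70th percentile, the last because Daglb was no longer measured. At 1.2-fold, 2 probe sets and 2 genes were higher, and 3 probe sets and 1 gene lower. At 2-fold, 0 probe sets and 0 genes were higher and 0 lower. The Cnr1 gene value was 0.40 by its brightest probe set and -0.16 by the mean of both. The median of the other pathway genes was 0.01 and became -0.046 with median centring, -0.012 without _s_at and _x_at probe sets and -0.017 with averaged ones. When dim probe sets were kept, 1 of them, Plcb2, was 1.57-fold lower at signals of 33.8 and 53. In the other 210 recomputed gene values, spreads, medians and counts, values moved by less than 1 array error (for a median, divided by the root of its number of genes) and counts by at most 1.5 times, and so did the 124 of single probe sets. No paired analysis was possible because each genotype is 1 pooled array. Probe sets near the floor limit what can be seen of Cnr2, Gpr18, Trpv1 and Ppara.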

Other observations

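Below the level of the gene, 3 of the 107 measured probe sets of the other pathway genes (2.80%) were at least 1.5-fold apart, against 4.44% of all measured probe sets, a share near that of the array, from which nothing about the pathway is read. All 3 were lower in the knockout pool and are named here after their values were seen. Naaa, the gene of the N-acylethanolamine acid amidase, read 60.1 in knockout and 100.9 in wild-type RNA by 1452068_at, a log2 difference of -0.75 with an array error of 0.32, while its brighter probe set differed by 0.24. Naaa thus had probe sets of opposite sign, as Cnr1 did. Gnaq, the gene of the G protein alpha subunit upstream of phospholipase C, read 113 and 185 by 1450115_at (-0.70), and its 6 measured probe sets ran from -0.70 to 0.49. Dgkd, a diacylglycerol kinase gene, read 45.4 and 72.4 by 1439873_at (-0.67). All 3 measured probe sets of Dgkd were lower in the knockout pool, with a mean of -0.51 and the brightest at -0.26.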
